A study of Mus musculus with 37 samples.

Results

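MicroRNA miR-181b was followed through leukaemic, mutant and normal blood cells of the mouse, with muscle and brain stem cells for comparison. Its members are the assays named exactly hsa-miR-181b and miR-181bN in the deposited files, 2 of 459 assays in each run. They were picked by name, by a rule that uses no measured value, but with earlier results of these data known. What the final N stands for is not given in the sources used here. Mature microRNAs were measured by TaqMan quantitative PCR after multiplex reverse transcription in 37 runs of sorted or cultured cells, with 20 to 1000 cells in a sample per the series' design text. The cell number of single samples is not stated in the labels. Each run gave a threshold cycle (Ct) per assay, the cycle at which the product becomes visible. A lower Ct means more RNA, and 40 was written where nothing amplified.

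KSL-ETO (3 runs) were Kit+ Sca-1+ lineage-negative marrow cells, the gate that holds blood progenitors, of C57/Bl6 mice carrying AML-ETO9a, a short form of a human leukaemia fusion. MLL-Prog (3 runs) were Kit- and MLL-LSC (3 runs) Kit+ leukaemia cells of C57/Bl6 mice transduced with the fusion oncogene MLL-AF10. Their genotype is labelled wildtype, and MLL-Prog are described as derived from MLL-LSC and depleted of leukaemia stem cells. The panel reads microRNAs, so the fusion genes and the Rb family could not be checked against the labels. KSL-RbTKO (2 runs) came through the KSL gate from mice of mixed 129Sv/J:C57Bl6 strain lacking the Rb family of cell cycle repressors. Wildtype KSL cells came from mice of that mixed strain (KSL-Mixed, 2 runs) and from C57/Bl6 mice (KSL-B6, 3 runs). LT-HSC (4 runs) were Endoglin+, rhodamine-low, Sca-1+ lineage-negative marrow cells of wildtype C57/Bl6 mice, labelled quiescent blood stem cells.

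The other groups were wildtype and of C57/Bl6 strain, apart from NSPC-Adult replicates 2 and 3, whose strain labels read C57/Bl7 and C57/Bl8. Myoblasts (Myoblast, 4 runs) came from limb muscle, and satellite cells (MuSC, 4 runs), the quiescent stem cells of muscle, from the tibialis anterior. NSPC-Adult (3 runs) were neurospheres, floating cultures of neural stem and progenitor cells, from 2 regions (SVZ and DG) of the adult brain. NSPC-P0 (3 runs) were fresh isolates from the same regions of newborn (P0) mice, and NSPC-P0-Exp (3 runs) were neurospheres expanded from them. The labels state neither the promoter or cell type that drives AML-ETO9a, nor how the Rb family was deleted, nor the age of the adult mice. Whether replicates came from different animals or cultures is not stated, so p-values measure the spread between these samples, which may be technical.

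MicroRNAs are short RNAs that pair through bases near their 5′ end, the seed, with messenger RNAs and lower their translation and stability. The miR-181 family is abundant in thymus and brain, its forced expression in mouse marrow progenitors favours B-lymphoid cells, and miR-181a tunes signalling of the T-cell receptor. In human acute myeloid leukaemia its level has been linked to clinical outcome.

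The mature sequences of the family are shown because they differ by few bases. RefSeq (build GRCm38.p6) lists 4 mature mouse microRNAs with this seed, bases 2 to 8, printed in capitals with all sequences 5′ to 3′.
mmu-miR-181b-5p: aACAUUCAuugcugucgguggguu
mmu-miR-181d-5p: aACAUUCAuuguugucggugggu
mmu-miR-181a-5p: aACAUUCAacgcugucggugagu
mmu-miR-181c-5p: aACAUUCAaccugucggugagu
Counted from the 5′ end of miR-181b, miR-181d differed over the 23 shared positions by C12U alone, and miR-181a by U9A, U10C and G21A. The miR-181c sequence was shorter, with 22 bases, and did not line up with miR-181b by substitutions only. Primer and probe sequences were not used here, and whether an assay for miR-181b also reads miR-181d was not tested.

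Mature miR-181b is made from 2 genes, whose hairpins are printed here because both hold the same mature RNA, in capitals.
Mir181b-1: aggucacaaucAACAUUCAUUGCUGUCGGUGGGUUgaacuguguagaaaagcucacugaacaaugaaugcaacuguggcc
Mir181b-2: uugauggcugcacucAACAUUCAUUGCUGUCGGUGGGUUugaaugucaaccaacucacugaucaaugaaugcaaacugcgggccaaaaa
Mir181b-1 lies at chr1:137966639-137966718 on the plus strand, 97 bases past Mir181a-1, and within the span of no other gene of the RefSeq table. Mir181b-2 lies at chr2:38853830-38853918 on the plus strand, 1019 bases past Mir181a-2, within the spans of Nr6a1, a nuclear receptor gene of the minus strand, and of the long non-coding RNA Nr6a1os. The table gives gene spans without exons, so exonic or intronic position is not stated. An assay of the mature RNA sums both genes.

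Between 61 and 143 of the 459 assays were detected in a run, at a Ct below 35, with the fewest in KSL-RbTKO (61 and 65). MuSC runs 1 and 2, and likewise runs 3 and 4, stood closer to each other (SD of their differences under 0.25 cycles) than any other pair of replicates (0.32 cycles or more), and were averaged as 1 sample each, which leaves 35 samples. NSPC-P0-Exp runs 1 and 2 stood apart in 1 block of 96 assays (numbers 97 to 192), where their Ct correlated with those of run 3 at r = 0.17 and 0.04, against at least 0.92 in their other blocks and at least 0.73 in any block of all other runs. That block holds miR-181bN (number 105), miR-181a, miR-181c and miR-213, while hsa-miR-181b (number 240) and hsa-miR-181d lie in the next block, so results of NSPC-P0-Exp for miR-181bN are given with and without those runs. Blood labels went with the blood marker miR-223, at Ct 17.3 to 24.6 in every blood run and 27.3 or later elsewhere, and Myoblast with the muscle microRNA miR-206 (Ct 20.7 to 22.0). The neural marker mmu-miR-9 was not detected in any neural run (Ct 35 or later), and miR-124a was not detected there either. Of the 6 neural assays, mmu-miR-137 and miR-128a were detected in every NSPC-P0 run, and mmu-miR-137 in no run of another population. The assay miR-128a was also detected in every run of NSPC-Adult (Ct 29.4 to 30.8), but not of NSPC-P0-Exp (Ct 33.3 to 36.2). Its detection was not limited to neural cells. Every run of MLL-Prog (Ct 29.3 to 29.8), MLL-LSC (Ct 29.8 to 30.4), KSL-Mixed, KSL-ETO and KSL-RbTKO had it as well.

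The assay hsa-miR-181b was detected in 37 of 37 runs, at Ct 21.6 to 28.5. The assay miR-181bN was detected in 22 of 37 runs and in every sample of 7 populations, at a lowest Ct of 24.6. It was not detected in any sample of KSL-ETO, KSL-RbTKO, LT-HSC or MuSC. Ct values of different assays depend on their efficiency, so the assays are compared by their pattern over samples and not by their level.

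**Figure D1:**
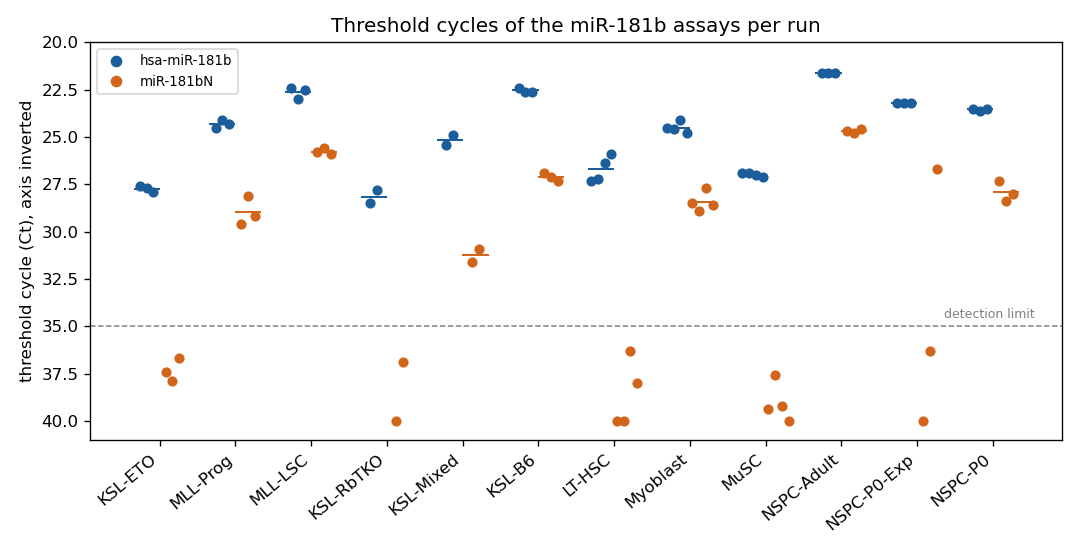
Threshold cycles of hsa-miR-181b (blue) and miR-181bN (orange) in each of 37 runs, by population. The vertical axis is inverted so that more RNA lies higher, each point is a run, short lines are means of populations in which all runs were detected, and the dashed line is the detection limit of Ct 35. The assay hsa-miR-181b lies between Ct 21.6 and 28.5 throughout, while miR-181bN falls below the limit in KSL-ETO, KSL-RbTKO, LT-HSC, MuSC and 2 runs of NSPC-P0-Exp.

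Samples held different amounts of RNA, so levels were set on a log2 scale after centring each sample on assays detected in all samples compared. In 1 scaling over all 35 samples, hsa-miR-181b was highest in NSPC-Adult at 3.83 ± 0.10 (SD, n = 3), followed by NSPC-P0 at 3.40 ± 0.13 and NSPC-P0-Exp at 3.14 ± 0.17. In blood the order was KSL-B6 at 2.62 ± 0.03, MLL-LSC at 2.58 ± 0.38, MLL-Prog at 1.84 ± 0.09, KSL-Mixed at 1.82 ± 0.09, KSL-RbTKO at 1.40 ± 0.18, LT-HSC at 1.17 ± 0.35 and KSL-ETO at -1.48 ± 0.22. Myoblast, at 1.74 ± 0.07, and MuSC, at 1.38 ± 0.01, fell among the blood populations. Neighbours in the order of all 12 populations overlapped, apart from NSPC-Adult and NSPC-P0, NSPC-P0-Exp and KSL-B6, MLL-LSC and MLL-Prog, Myoblast and KSL-RbTKO, and LT-HSC and KSL-ETO. The step between those last neighbours was 2.64 log2 units, against at most 0.74 between any others.

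For miR-181bN the order was NSPC-Adult at 0.73 ± 0.06, MLL-LSC at -0.55 ± 0.28, NSPC-P0 at -0.97 ± 0.47, KSL-B6 at -1.95 ± 0.12, Myoblast at -2.19 ± 0.36, MLL-Prog at -2.82 ± 0.67 and KSL-Mixed at -4.28 ± 0.23. NSPC-P0-Exp run 3 stood at -0.51, with runs 1 and 2 at the floor. KSL-ETO, KSL-RbTKO, LT-HSC and MuSC lay at the common floor of -5.23, the lowest level measurable in all samples, and have no order among themselves. KSL-B6 therefore stood above LT-HSC for both assays, while MLL-LSC and KSL-B6 overlapped for hsa-miR-181b and not for miR-181bN.

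**Figure D2:**
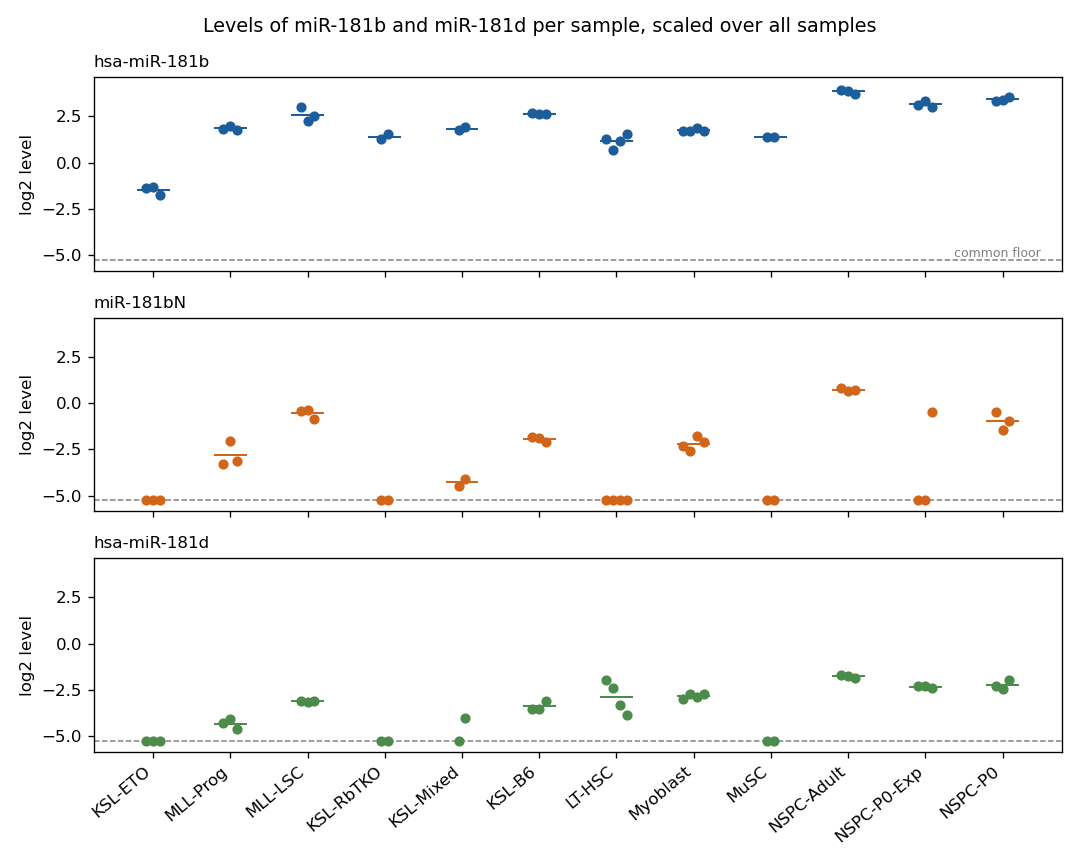
Log2 levels of hsa-miR-181b, miR-181bN and hsa-miR-181d per sample, centred over assays detected in all 35 samples, by population. Points are samples, short lines are means of populations with all samples above the common floor (dashed, -5.23). KSL-ETO is the lowest population for hsa-miR-181b and lies at the floor for both other assays.

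Blood progenitors with AML-ETO9a had far less miR-181b than wildtype progenitors of the same gate and strain, by both assays. The assay hsa-miR-181b crossed the threshold at Ct 27.6, 27.7 and 27.9 in KSL-ETO, against 22.4, 22.6 and 22.6 in KSL-B6. All KSL-ETO samples crossed later than all KSL-B6 samples. The level fell by 4.71 ± 0.16 log2 units (SE, n = 3 each), which is 26.2-fold lower if PCR is fully efficient, with a limma adjusted p of 2.04e-06. The assay miR-181bN was not detected in KSL-ETO (Ct 37.4, 37.9 and 36.7), against Ct 26.9, 27.1 and 27.3 in KSL-B6. It was at least 148-fold lower in KSL-ETO (limma adjusted p = 5.01e-07), and as its KSL-ETO samples were set to the floor, its standard error is understated. In this comparison 70.4% of 125 tested assays passed the test, at a limma p adjusted over all of them of under 0.05, and 38.4% were lower in KSL-ETO.

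The fall did not need scaling to be seen. Ordered by Ct within a run, hsa-miR-181b was the assay at place 38 in every KSL-ETO run, against place 6 in every KSL-B6 run. The mean Ct over the 28 assays detected in all samples was 26.2 to 26.4 in KSL-ETO and 25.05 to 25.2 in KSL-B6. With all 5 wildtype KSL samples as the control, the difference for hsa-miR-181b was -4.25 ± 0.23 (limma adjusted p = 2.44e-06). Bulk values of this kind cannot tell fewer cells of a type that holds the RNA apart from less RNA per cell.

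Other blood markers moved beside this fall. Markers are counted here and below as assays, and some assays read the same microRNA. Of the lymphoid markers outside the miR-181 family (miR-150, miR-155 and mmu-miR-155), 3 of 3 fell in KSL-ETO, with a summed log2 level of 0.37 to 0.80 in KSL-ETO and 1.15 to 1.39 in KSL-B6. Of 7 pan-blood markers, which hold those 3 as well, 3 rose and 4 fell, among them miR-155, a microRNA of activated lymphocytes, which fell by 3.24. Of 5 myeloid markers 4 were tested, and 3 rose, mmu-miR-142-3p by 2.52, while miR-223, the granulocyte microRNA, fell by 3.31. The summed level of the myeloid list was 2.74 to 3.01 in KSL-ETO and 4.24 to 4.78 in KSL-B6. Both endothelial assays fell as well. Of 15 assays of microRNAs known for high levels in blood stem and progenitor cells, 13 were tested and 13 fell, with a list median of -4.88 that counts members at the floor at their bound, against -0.01 over all tested assays. The erythroid marker miR-451 was not detected in either group by either of its assays. The part of these cell types in the fall of miR-181b was not tested.

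The 2 leukaemia models stood apart. In KSL-ETO, hsa-miR-181b had Ct 27.6, 27.7 and 27.9, against 22.4, 23 and 22.5 in MLL-LSC. The difference was -4.16 ± 0.25 log2 units (limma adjusted p = 3.17e-05), 17.9-fold lower in KSL-ETO, and no samples overlapped. For miR-181bN, Ct 37.4, 37.9 and 36.7 in KSL-ETO stood against 25.8, 25.6 and 25.9 in MLL-LSC. It was at least 272-fold lower in KSL-ETO (limma adjusted p = 2.96e-08), a p-value understated as KSL-ETO lay at the floor. Of 130 tested assays 78.5% passed and 40.8% were lower in KSL-ETO, so a call alone was common here. The median over all tested assays was -0.16. Of 4 tested myeloid markers 2 were higher and 1 was lower in KSL-ETO, miR-223, which fell by 6.19, and their summed level was 2.74 to 3.01 in KSL-ETO and 7.72 to 7.86 in MLL-LSC. The lymphocyte microRNA miR-150 was higher by 3.84 and the endothelial and stem cell microRNA miR-126 by 4.04, while miR-196a and miR-196b were at -10.89 and -10.96 or lower. The part of these markers in the result was not tested.

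The Kit- fraction of the MLL-AF10 leukaemia had less miR-181b than the Kit+ fraction, which is described as self-renewing. MLL-Prog had hsa-miR-181b at Ct 24.5, 24.1 and 24.3, against 22.4, 23 and 22.5 in MLL-LSC. The level fell by 0.83 ± 0.23 log2 units (limma adjusted p = 0.025), and the groups did not overlap. That call was lost in 5 of 6 fits without 1 sample, in all but that without MLL-LSC replicate 2, at adjusted p-values of up to 0.0788. It was also lost with samples centred on the median, where the difference was -0.37. The assay miR-181bN had Ct 29.6, 28.1 and 29.2 in MLL-Prog, against 25.8, 25.6 and 25.9 in MLL-LSC. It fell by 2.36 ± 0.33 (limma adjusted p = 0.00226), 5.13-fold, and passed in all 6 fits without 1 sample. In this comparison 57.4% of 122 tested assays passed and 29.5% were lower in MLL-Prog. Myeloid markers rose beside the fall, 4 of 4 tested out of 5, with a summed level of 8.59 to 8.73 in MLL-Prog and 7.72 to 7.86 in MLL-LSC, and their part in the result was not tested.

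Against normal progenitors of the same strain, the assays gave different results for MLL-LSC. The assay hsa-miR-181b had Ct 22.4, 23 and 22.5 in MLL-LSC, against 22.4, 22.6 and 22.6 in KSL-B6. The groups overlapped, and the difference of -0.41 ± 0.23 did not pass (limma adjusted p = 0.163), with a 95% interval between -0.97 and 0.15. The assay miR-181bN had Ct 25.8, 25.6 and 25.9 in MLL-LSC, against 26.9, 27.1 and 27.3 in KSL-B6. It rose by 1.02 ± 0.16, 2.03-fold (limma adjusted p = 0.00194), and no samples overlapped. With all 5 wildtype KSL samples as the control the rise was 2.02, and in 1 fit of all 12 populations the difference of 1.40 did not pass (limma adjusted p = 0.134). A pass was found for 65.9% of 135 tested assays, 34.8% as higher and 31.1% as lower in MLL-LSC. Beside these values, 4 of 4 tested myeloid markers were higher in MLL-LSC, with a summed level of 7.72 to 7.86 in MLL-LSC and 4.24 to 4.78 in KSL-B6, and their part was not tested.

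Against LT-HSC, the cells labelled blood stem cells, MLL-LSC had more miR-181b by both assays. The assay hsa-miR-181b had Ct 22.4, 23 and 22.5 in MLL-LSC, against 27.3, 27.2, 26.4 and 25.9 in LT-HSC. It was higher by 2.12 ± 0.26 in MLL-LSC, 4.35-fold (limma adjusted p = 0.000846, n = 3 and 4), and lay between 1.26 and 4.07 over all alternatives, at 4.07 without scaling and 1.35 centred on the median. The assay miR-181bN had Ct 25.8, 25.6 and 25.9 in MLL-LSC and was not detected in LT-HSC (Ct 40, 40, 36.3 and 38). It was at least 103-fold higher in MLL-LSC (limma adjusted p = 1.28e-07), a bound of 6.68 log2 units that was 7.35 without LT-HSC replicate 1. As all LT-HSC samples were set to the floor, the standard error and p-value of that bound are understated. Of 123 tested assays 53.7% passed, 39.8% as higher and 13.8% as lower in MLL-LSC, and the median over all tested assays was 0.80. Of 7 pan-blood markers 3 were higher and 1, the lymphocyte microRNA miR-150, was lower, at -6.41. Of 7 tested blood stem and progenitor assays 5 were higher and 1 was lower, with miR-196b, encoded in a Hox cluster, higher by at least 9.55 log2 units. Summed myeloid levels were 7.72 to 7.86 in MLL-LSC and 8.46 to 9.05 in LT-HSC, and the part of these markers was not tested.

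In normal marrow miR-181b was higher in KSL-B6 than in LT-HSC, the cells labelled blood stem cells, by both assays. KSL-B6 had hsa-miR-181b at Ct 22.4, 22.6 and 22.6, against 27.3, 27.2, 26.4 and 25.9 in LT-HSC, with no overlap. The level rose by 2.16 ± 0.21 log2 units (limma adjusted p = 0.000162), 4.47-fold. The assay miR-181bN, at Ct 26.9, 27.1 and 27.3 in KSL-B6, was at least 39.8-fold higher (limma adjusted p = 4.58e-07). This bound of 5.31 log2 units was 5.98 without LT-HSC replicate 1. Its p-value is understated, as LT-HSC lay at the floor. A pass was common in this comparison, with 64.5% of 121 tested assays and 49.6% as higher in KSL-B6, and the median over all tested assays was 1.14, so a rise of miR-181b went with a rise of the median assay. Without scaling the hsa-miR-181b difference was 4.17, and over all alternatives it lay between 1.43 and 4.17.

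Marker lists differed between these populations too. Myeloid markers had a summed level of 4.24 to 4.78 in KSL-B6 and 8.46 to 9.05 in LT-HSC, while 1 of the 4 tested myeloid markers passed, miR-223, which fell by 3.68 in KSL-B6. Of the 3 lymphoid markers outside the miR-181 family, 2 were higher and 1 was lower in KSL-B6. The blood stem and progenitor list moved one way, with 13 of 13 tested members higher in KSL-B6 and a median of 3.38. The erythroid marker mmu-miR-451 was at Ct 40 in KSL-B6 and between 28.6 and 40 in LT-HSC. The endothelial and stem cell microRNA miR-126 had Ct 24.2 to 24.5 in KSL-B6, against 28.6 to 40 in LT-HSC. The part of other cell types in the LT-HSC values was not tested.

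Wildtype progenitors of mixed strain had less miR-181b than those of C57/Bl6 strain, a call that held in every fit without 1 sample for miR-181bN and not for hsa-miR-181b. KSL-Mixed had hsa-miR-181b at Ct 25.4 and 24.9, against 22.4, 22.6 and 22.6 in KSL-B6. Over the 28 assays detected in all samples, the mean Ct was 26.8 to 27.2 in KSL-Mixed and 25.05 to 25.2 in KSL-B6. Strain cannot be told apart here from other differences between these samples, such as their amount of RNA. The level fell by 0.58 ± 0.13 (limma adjusted p = 0.0253, n = 2 and 3), a call lost in 3 of 5 fits without 1 sample (KSL-B6 replicates 1 and 2, KSL-Mixed replicate 4), and with samples centred on the median (-0.10). With miR-181bN, Ct was 31.6 and 30.9 in KSL-Mixed, against 26.9, 27.1 and 27.3 in KSL-B6. It fell by 2.11 ± 0.21, 4.32-fold (limma adjusted p = 0.00417). Here 47% of 115 tested assays passed and 31.3% were lower in KSL-Mixed. Of the 3 lymphoid markers outside the miR-181 family 2 were lower, and of 7 pan-blood markers 3 were lower, with miR-142-5p at -2.43. Of 13 tested blood stem and progenitor assays 4 were lower, and the mesenchymal marker miR-145 was higher by 2.62. The part of these markers was not tested.

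KSL-RbTKO had hsa-miR-181b at Ct 28.5 and 27.8, against 25.4 and 24.9 in KSL-Mixed. Scaled, the difference was -0.79 ± 0.18 (limma adjusted p = 0.0777, n = 2 each), which did not pass, with a 95% interval between -1.41 and -0.17 before adjustment. Assays ran late in KSL-RbTKO, with a mean Ct of 29.3 to 29.8 over the 28 assays detected in all samples, against 26.8 to 27.2 in KSL-Mixed. The assay miR-181bN was not detected in KSL-RbTKO (Ct 40 and 36.9), against Ct 31.6 and 30.9 in KSL-Mixed. In this comparison 30.9% of 94 tested assays passed and 19.1% were lower in KSL-RbTKO. The assay miR-181bN was at least 2.55-fold lower (limma adjusted p = 0.0353, understated as KSL-RbTKO lay at the floor). That call was lost without either KSL-RbTKO sample, at adjusted p-values of 0.136 and 0.149, and under several other settings.

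The difference in hsa-miR-181b was larger with AML-ETO9a than with loss of the Rb family. The effect of AML-ETO9a against KSL-B6 minus that of the knockout against KSL-Mixed was -3.49 ± 0.20 log2 units in 1 fit of all 4 KSL populations (limma adjusted p = 2.17e-05), where 55.9% of 127 tested assays passed. This contrast was chosen after seeing the data, so its p-value is a description and not a test. For miR-181bN the same difference was -2.60, but both KSL-ETO and KSL-RbTKO lay at the floor, so it holds the difference between their wildtype controls and nothing of the mutants.

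**Figure D3:**
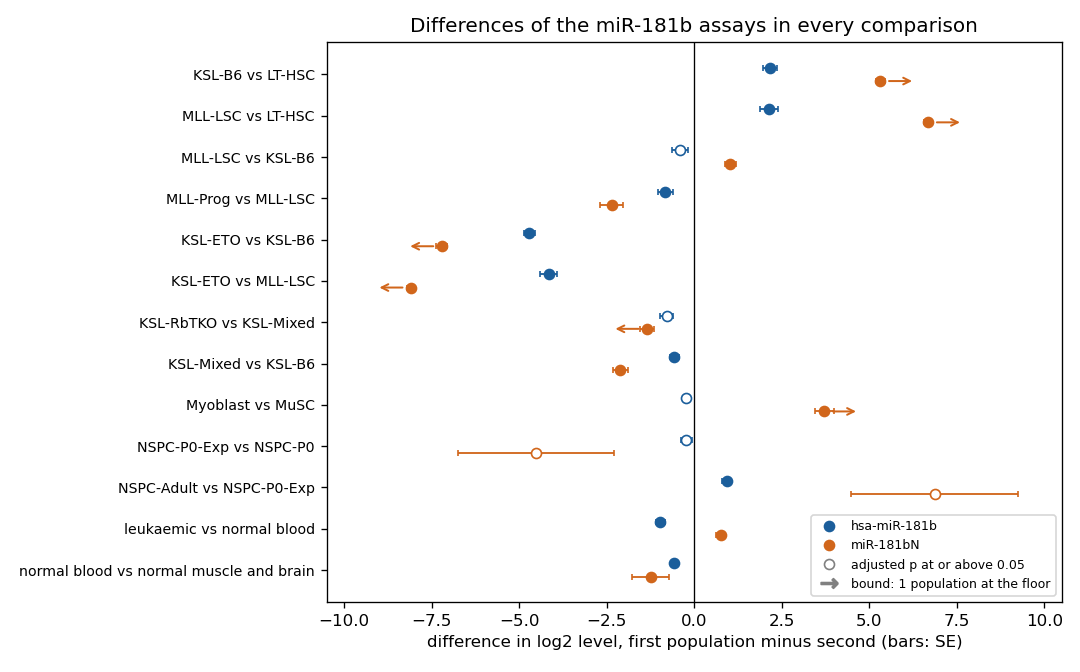
Differences in log2 level of hsa-miR-181b (blue) and miR-181bN (orange) in 13 comparisons, as the first named population minus the second. Bars are standard errors, filled points passed the limma test at an adjusted p of 0.05, and arrows mark bounds against a population at the floor. The AML-ETO9a comparisons lie at -4.71 and -4.16 for hsa-miR-181b, and the pooled comparison of leukaemic with normal blood puts the assays on opposite sides of 0.

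In muscle the assays did not move alike. Myoblast had hsa-miR-181b at Ct 24.5, 24.6, 24.1 and 24.8, against 26.9, 26.9, 27.0 and 27.1 in the MuSC runs. Scaled, the difference was -0.24 ± 0.09 and did not pass (limma adjusted p = 0.0668, n = 4 and 2 samples), while without scaling it was 2.48 and passed, so its direction depends on the scaling. By contrast miR-181bN had Ct 28.5, 28.9, 27.7 and 28.6 in Myoblast and was not detected in MuSC (Ct 39.4, 37.6, 39.2 and 40). It was at least 13.1-fold higher in Myoblast (limma adjusted p = 0.000167), with the p-value understated as MuSC lay at the floor. In this comparison 61.4% of 127 tested assays passed and 46.5% were higher in Myoblast. For hsa-miR-181b the step of KSL-B6 against LT-HSC exceeded that of Myoblast against MuSC by 1.70 ± 0.25 (limma adjusted p = 0.000195), in a fit where 55% of 149 tested assays passed. That contrast, too, was chosen after seeing the data. For miR-181bN both LT-HSC and MuSC lay at the floor, so that difference holds KSL-B6 against Myoblast and nothing of the stem cells. It was 0.38 ± 0.24 and did not pass (limma adjusted p = 0.216).

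In brain hsa-miR-181b was high throughout, and no difference between expanded and fresh newborn cells passed the test under the main settings. The assay had Ct 23.2 in all 3 runs of NSPC-P0-Exp, against 23.5, 23.6 and 23.5 in NSPC-P0. The scaled difference of -0.23 ± 0.15 did not pass (limma adjusted p = 0.28), with a 95% interval between -0.60 and 0.15. Centred on the median it was -0.73 and without scaling 0.33, both called, so its direction depends on the scaling. The assay miR-181bN had Ct 40, 36.3 and 26.7 in NSPC-P0-Exp, against 27.3, 28.4 and 28.0 in NSPC-P0. Its difference was -4.52 ± 2.22 (limma adjusted p = 0.172) with all runs. Without NSPC-P0-Exp runs 1 and 2 it was 0.78, so the sign hung on those runs. In 1 fit of all 12 populations, which holds runs 1 and 2, miR-181bN was called as lower in NSPC-P0-Exp. In this comparison 46.8% of 126 tested assays passed.

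Adult neurospheres had more hsa-miR-181b than newborn ones. NSPC-Adult had hsa-miR-181b at Ct 21.6 in all 3 runs, against 23.2 in all 3 runs of NSPC-P0-Exp. The level rose by 0.93 ± 0.13, 1.90-fold (limma adjusted p = 0.00494), where 40.9% of 132 tested assays passed and 25.8% were higher in NSPC-Adult. After quantile normalization the difference was 0.34 and did not pass. The assay miR-181bN had Ct 24.7, 24.8 and 24.6 in NSPC-Adult. Against all NSPC-P0-Exp runs its difference of 6.86 ± 2.39 did not pass (limma adjusted p = 0.0713), and against run 3 alone it was 1.45 ± 0.17 and passed (limma adjusted p = 0.0226), with that lone sample assumed to vary like the others.

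Pooled over populations, the assays pointed in opposite directions in these leukaemic populations. The p-values here measure the spread of samples within populations, and not that between leukaemias or between normal populations. Among the leukaemic populations the mean hsa-miR-181b level ran between -1.48 (KSL-ETO) and 2.58 (MLL-LSC) in the scaling over all samples. The mean of MLL-LSC, MLL-Prog and KSL-ETO minus the mean of LT-HSC, KSL-B6 and KSL-Mixed, each population weighing the same, was -0.97 ± 0.12 for hsa-miR-181b (limma adjusted p = 1.14e-05). For miR-181bN it was 0.75 ± 0.14 (limma adjusted p = 0.000304), a value in which KSL-ETO and LT-HSC stood at the floor. Without those populations it was 1.00 ± 0.20 for miR-181bN and -0.43 ± 0.13 for hsa-miR-181b, and both passed. Without scaling the hsa-miR-181b difference was -0.09 and did not pass, and the miR-181bN difference did not pass without a common floor (0.74) or in 1 fit of all 12 populations (0.95). The samples of both sides overlapped for both assays, and 61.7% of 149 tested assays passed, 36.9% as higher and 24.8% as lower in leukaemic blood.

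Normal blood had less hsa-miR-181b than normal muscle and brain, with a difference of -0.59 ± 0.08 (limma adjusted p = 3.34e-06). That direction turned without LT-HSC and MuSC, to 0.57 ± 0.06 (limma adjusted p = 2.40e-06). For miR-181bN the difference was -1.25 ± 0.53 (limma adjusted p = 0.0485). It was -1.91 ± 0.12 without NSPC-P0-Exp runs 1 and 2, and -0.24 without LT-HSC and MuSC, where it did not pass. That call was lost in 21 of 24 fits without 1 sample, in all but those without 1 of the NSPC-P0-Exp runs, and with the replicate number as a block (-1.27, limma adjusted p = 0.161). In this comparison 63.9% of 169 tested assays passed, 45.6% as lower and 18.3% as higher in blood. Here too the p-values measure the spread of samples within populations, and not that between populations.

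Across the 13 comparisons, which share samples, both assays were called in the same direction in 7 and in opposite directions in 1. In 3 comparisons miR-181bN alone was called, in 1 hsa-miR-181b alone, and in 1 neither. Over the 12 population means their levels correlated at r = 0.74 (Spearman 0.85), and over the 7 populations with miR-181bN above the floor in every sample at r = 0.85 (Spearman 0.79), as a description of means that share runs and scaling.

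The gap between the assays, Ct of miR-181bN minus Ct of hsa-miR-181b in 1 sample, needs no scaling. It was 4.67 ± 0.59 cycles in MLL-Prog, 3.13 ± 0.46 in MLL-LSC, 6.10 ± 0.14 in KSL-Mixed and 4.57 ± 0.12 in KSL-B6 (SD, n = 3, 3, 2 and 3). Outside blood it was 3.93 ± 0.30 in Myoblast, 3.10 ± 0.10 in NSPC-Adult and 4.37 ± 0.51 in NSPC-P0, and 3.5 in NSPC-P0-Exp run 3. Where miR-181bN was not detected the gap has only a lower limit, at 7.1 to 7.4 cycles in KSL-ETO, 6.5 to 7.2 in KSL-RbTKO, 7.7 to 9.1 in LT-HSC, 7.95 to 8.1 in MuSC and 11.8 in NSPC-P0-Exp runs 1 and 2. All of these limits lay above 6.2, the largest gap measured, so the assays did not differ by a fixed number of cycles.

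Detection of miR-181bN followed the Ct of the other assay. In the 22 samples in which both were detected, hsa-miR-181b had Ct 21.6 to 25.4. In 11 of the 13 samples without miR-181bN it had Ct 25.9 to 28.5, and the other 2 were NSPC-P0-Exp runs 1 and 2, at Ct 23.2. Among samples with both, the gap was 3.90 ± 0.96 in leukaemic blood (n = 6) and 5.18 ± 0.85 in normal blood (n = 5). The difference of -1.28 cycles had an exact permutation p of 0.0476 (two-sided, 462 arrangements), or 0.0816 after adjustment over 2 tests, and did not pass. With all blood samples it was 4.48 ± 1.09, against 3.78 ± 0.58 in muscle and brain (n = 11 each), and the difference of 0.70 did not pass either (permutation p = 0.0816). With a detection limit of Ct 38 the differences were -0.17 and 1.51 cycles, and neither passed. These tests leave out every sample without miR-181bN, KSL-ETO and LT-HSC among them.

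**Figure D4:**
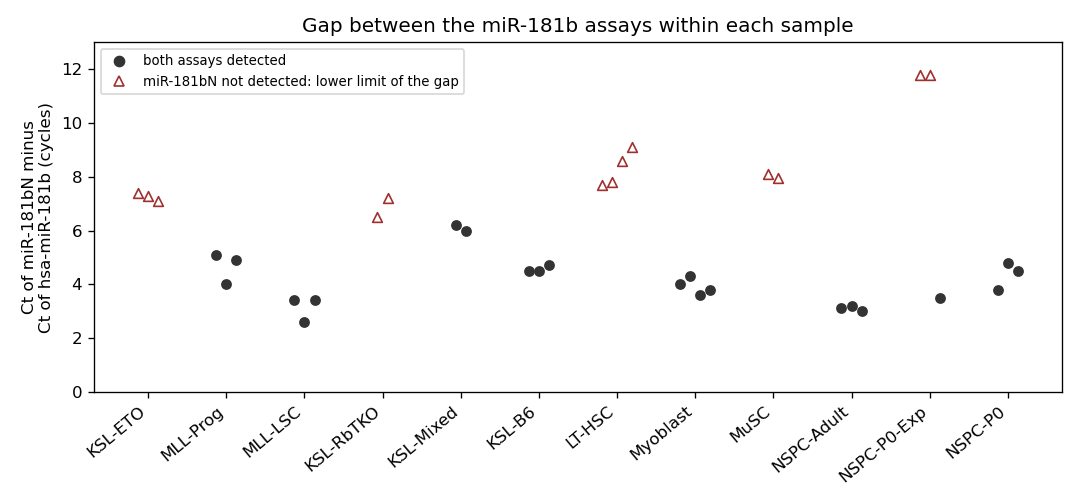
Ct of miR-181bN minus Ct of hsa-miR-181b per sample, by population. Filled points are samples with both assays detected, and open triangles are lower limits where miR-181bN was not detected. Measured gaps run between 2.6 and 6.2 cycles, and all lower limits lie at 6.5 or above.

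**Figure D5:**
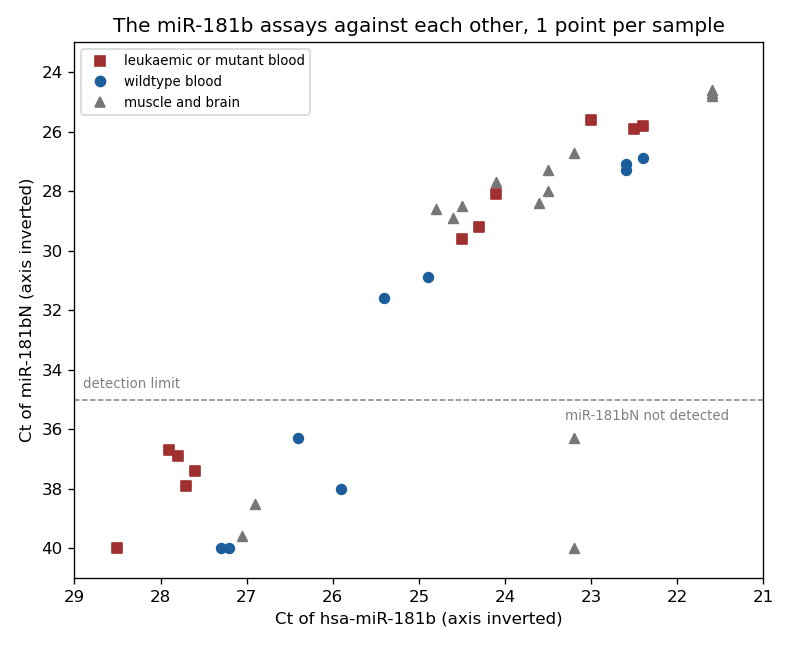
Ct of miR-181bN against Ct of hsa-miR-181b, 1 point per sample for 35 samples, both axes inverted so that more RNA lies up and to the right. Red squares are leukaemic or mutant blood, blue circles wildtype blood and grey triangles muscle and brain, and points under the dashed line at Ct 35 count as not detected. Samples with hsa-miR-181b later than Ct 25.4 have no detected miR-181bN, and the 2 grey points at lower right are NSPC-P0-Exp runs 1 and 2.

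A gap that varies between populations was not particular to miR-181b. The panel held 16 other pairings of an assay ending in N with an assay of the same microRNA, 9 of them with both detected in at least 10 samples. The mean gap of those 9 ranged over populations by 1.33 to 4.68 cycles, against 3.00 for miR-181b, and 4 of the 9 exceeded it. These ranges use only samples with both assays detected. For miR-181b that kept 22 samples and dropped 13 in which miR-181bN was not detected. The dropped samples have larger gaps, at least 7.7 cycles in LT-HSC against 3.10 in NSPC-Adult. The range of 3.00 is therefore a lower limit, and the place of miR-181b among the pairs cannot be read from it.

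Of the other members of the seed family, miR-181a and miR-181c were mostly near or under the detection limit. The assay hsa-miR-181d was detected in 32 of 37 runs, at Ct 27.2 to 34.2. It had Ct 34, 32.7 and 34 in KSL-ETO, against 28.6, 28.7 and 28.3 in KSL-B6. It fell by 4.54 ± 0.46 in KSL-ETO (limma adjusted p = 0.000235), where hsa-miR-181b fell by 4.71. In MLL-Prog it had Ct 30.6, 30.1 and 30.7, against 28.5, 28.4 and 28.1 in MLL-LSC, and it fell by 1.29 ± 0.17 (limma adjusted p = 0.00194). In Myoblast it had Ct 29.2, 29, 28.8 and 29.2, against 35, 34.2, 36.6 and 36.3 in MuSC, and was at least 8.21-fold higher in Myoblast (limma adjusted p = 3.15e-05).

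Between KSL-B6 and LT-HSC miR-181d was not called, unlike miR-181b. In KSL-B6 hsa-miR-181d had Ct 28.6, 28.7 and 28.3, against 30.5, 30.3, 30.9 and 31.3 in LT-HSC. Its scaled difference of 0.21 ± 0.45 did not pass (limma adjusted p = 0.707), with a 95% interval between -0.89 and 1.31, while hsa-miR-181b rose by 2.16. The difference between these assays was not itself tested.

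The assay miR-181a was detected in 4 of 37 runs, all 3 of MLL-LSC (Ct 33.3, 33.8 and 34.6) and 1 of KSL-B6 (33.7). The assay miR-181c was detected in 9 of 37 runs, among them all 3 of MLL-LSC (33.8, 33.8 and 34.2). Its Ct of 34.4 and 29.5 in NSPC-P0-Exp runs 1 and 2, against 40 in run 3, fell in the block that did not track. The assay miR-213, a RefSeq synonym of Mir181a-1, was not detected in any run (Ct 35.9 or later). Of the 5 seed family assays 3 were tested in KSL-ETO against KSL-B6 and all 3 fell, against 38.4% lower among all tested assays. In KSL-B6 against LT-HSC 3 were tested and 2 rose, against 49.6% higher among all. In MLL-Prog against MLL-LSC 5 were tested and 3 fell, against 29.5% lower among all. In MLL-LSC against KSL-B6 5 were tested and miR-181bN alone passed, against 65.9% among all. Both members are among the assays counted.

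The assays whose population means followed each member were named by their Pearson correlation over 12 populations, among 161 candidates. For hsa-miR-181b these were hsa-miR-181d (r = 0.74), miR-218 (0.65), mmu-miR-221 (0.64), miR-99a (0.60) and miR-125a (0.59). By rank correlation hsa-miR-181d again came first (0.73), while miR-20 (0.71) and miR-93 (0.70) followed. For miR-181bN they were miR-106a (0.81), miR-93 (0.79), miR-25 (0.79), mmu-miR-93 (0.74) and hsa-miR-181d (0.73), and by rank correlation miR-93 (0.88) and miR-25 (0.84) led. These values describe means that share runs and scaling, and the populations at the floor are tied.

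In single comparisons the followers had values of their own. The assay mmu-miR-221, whose human counterpart targets the Kit receptor, fell by 7.98 ± 0.65 in KSL-ETO against KSL-B6 and by 1.71 ± 0.12 in MLL-LSC against KSL-B6, where hsa-miR-181b did not pass. The assay miR-125a, of a family known to expand blood stem cells in mice, had Ct 34.2 to 40 in MLL-LSC, against 25.8 to 26.2 in KSL-B6, and was lower there, but with undetected samples its difference is not a measured size. The assay miR-93 rose by 1.16 ± 0.18 in that comparison, beside the rise of 1.02 for miR-181bN, and fell by 1.68 ± 0.25 in KSL-ETO against KSL-B6 and by 0.79 ± 0.23 in MLL-Prog against MLL-LSC. Each of these changes passed the limma test. A pass was common, at 70.4% of tested assays in KSL-ETO against KSL-B6. It was found for 65.9% in MLL-LSC against KSL-B6 and 57.4% in MLL-Prog against MLL-LSC. Followers were picked by correlation over means that hold these same populations. That choice favoured a shared direction, which is therefore no separate support.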

How the data were processed

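The values are threshold cycles (Ct) as the authors deposited them, a unit of its own kind, written to 1 decimal with 40 where nothing amplified. Per the labels' protocols, cells were sorted or aliquoted in defined numbers, lysed, and measured by multiplex reverse transcription and TaqMan PCR. Which software set the thresholds is not given in the sources used here, nor are its settings. A run holds 459 assays, and 1 value without a name was left out.

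A level is 40 minus Ct, centred per sample on the mean of assays detected (Ct below 35) in every run compared. Levels under the highest detection limit of the samples compared were set to it, the common floor. A population wholly at the floor shows no spread, so standard errors and p-values of its differences are understated. Assays detected in every run of at least 1 population were tested with limma 3.58.1 (R 4.3.3, jsonlite 2.0.0), two-sided, with Benjamini-Hochberg adjustment over all tested assays of a comparison at 0.05. Log2 differences assume full PCR efficiency. Gaps between assays were tested by permutation (exact, or 100000 resamples).

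Replicate numbers were checked for pairing. They paired MLL-LSC with LT-HSC by the rule used (r = 0.15 to 0.23 in 3 pairs), a hint from the data and not from the labels, and none of the 7 other comparisons checked.

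On simulated data (20 sets, 40 of 459 assays changed by 2 log2 units), between 39.4% (Myoblast against MuSC) and 90.1% (MLL-Prog against MLL-LSC) of tested changed assays were recovered, with 0 of wrong sign. False calls made up between 2.3% (Myoblast against MuSC) and 10.1% (leukaemic against normal blood) of calls. In the data 30.9% to 78.5% of tested assays passed, a larger share than the sets changed. The sets therefore do not examine the centring under so broad a change.

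The members and lists were chosen with earlier results of these data known. Named are both members, their seed family and opposite strand, the 5 assays closest in pattern to each, and the top 2 of each marker list. Alternatives were other detection limits, scalings, floors, fits and controls, and leaving out each replicate.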

Additional observations from a re-analysis of the deposited data

Results flagged for a closer look

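The step of KSL-B6 against LT-HSC exceeded the step of Myoblast against MuSC for hsa-miR-181b by 1.70 log2 units (limma interaction, adjusted p = 0.000195). The 95% interval lay between 1.15 and 2.26. This contrast and the next were chosen after seeing the data, so their p-values are a description and not a test. The effect of AML-ETO9a minus that of the Rb family knockout was -3.49 for hsa-miR-181b (limma interaction, adjusted p = 2.17e-05) and -2.60 for miR-181bN (adjusted p = 4.41e-05). Both mutants stood at the floor of -4.85 for miR-181bN, so that value equals the level of KSL-Mixed, at -3.51, set against that of KSL-B6, at -0.91. In each of these 2 fits a pass was common, at 55% of 149 and 55.9% of 127 tested assays. No sample stood apart in the 4 tests for a single outlying sample.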

How the results depend on the processing

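Of 248 values under other settings 208 kept their direction and their side of the threshold, and of 247 values without 1 replicate 211 did, which includes both assays in the comparisons of KSL-ETO with KSL-B6 and with MLL-LSC, of KSL-B6 with LT-HSC and of MLL-LSC with LT-HSC under all settings run. Late Ct values rest on few copies, and where all samples of a population lie past Ct 35 the difference is a bound, while cell numbers differ between samples in ways that scaling can only estimate. The cause of the changes below was not tested.

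For hsa-miR-181b, centring on the median gave 0.10 in MLL-LSC against KSL-B6, -0.37 in MLL-Prog against MLL-LSC, -0.10 in KSL-Mixed against KSL-B6 and a called -0.73 in NSPC-P0-Exp against NSPC-P0. Quantile normalization gave -0.54 in MLL-Prog against MLL-LSC, a called -1.99 in Myoblast against MuSC and 0.34 in NSPC-Adult against NSPC-P0-Exp. Without scaling the values were -3 in KSL-RbTKO against KSL-Mixed, 2.48 in Myoblast against MuSC and 0.33 in NSPC-P0-Exp against NSPC-P0, all called, and -0.094 in leukaemic against normal blood. Testing all assays left -0.83 in MLL-Prog against MLL-LSC and -0.58 in KSL-Mixed against KSL-B6 uncalled. In KSL-Mixed against KSL-B6 a limit of Ct 38 gave -0.56 and no common floor -0.58, both uncalled. A limit of Ct 32 gave a called -0.26 and all 12 populations in 1 fit 0.36 in Myoblast against MuSC. All 5 wildtype KSL samples as control gave a called -1.34 in KSL-RbTKO. Without LT-HSC and MuSC, chosen after seeing the data, normal blood against muscle and brain gave 0.57.

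For miR-181bN in KSL-RbTKO against KSL-Mixed, a limit of Ct 32 gave 0 (both populations at the floor), centring on the median -0.63, all assays tested -1.35 and all 12 populations -0.95, all uncalled. All 12 populations in 1 fit gave an uncalled 1.40 in MLL-LSC against KSL-B6, a called -2.69 in NSPC-P0-Exp against NSPC-P0, a called 4.39 in NSPC-Adult against NSPC-P0-Exp and an uncalled 0.95 in leukaemic against normal blood, where no common floor gave an uncalled 0.74. Without NSPC-P0-Exp runs 1 and 2, chosen after seeing the data, the neural values were 0.78 and a called 1.45. Testing all assays left -2.11 in KSL-Mixed against KSL-B6 uncalled, and a limit of Ct 32 left 0.68 in Myoblast against MuSC uncalled. In normal blood against muscle and brain the call was lost at -0.91 (limit Ct 38), -1.12 (no scaling), -1.02 (median), -0.59 (quantile), -0.999 (no common floor), -1.25 (all assays tested), -1.27 (replicate block) and -0.24 (without LT-HSC and MuSC).

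Without 1 replicate, hsa-miR-181b ranged between -1.05 and -0.63 in MLL-Prog against MLL-LSC, between -0.67 and -0.38 in KSL-Mixed against KSL-B6, and between -0.40 and -0.21 in Myoblast against MuSC, called without MuSC runs 1 and 2 (-0.33) and without runs 3 and 4. The assay miR-181bN ranged between -1.68 and -1.14 in KSL-RbTKO against KSL-Mixed, between -7.02 and -3.18 in NSPC-P0-Exp against NSPC-P0, between 5.46 and 9.54 in NSPC-Adult against NSPC-P0-Exp (called without NSPC-P0-Exp replicate 3 in both), and between -1.45 and -0.92 in normal blood against muscle and brain. The gap of all blood minus muscle and brain ranged between 0.53 and 0.89 cycles, and passed without MLL-LSC replicate 2. The replicate block changed no other call, and gave 2.24 for hsa-miR-181b in MLL-LSC against LT-HSC, where the numbers paired.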
